A study of Mus musculus with 12 samples.

Results

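NRF2, its inhibitor KEAP1 and 7 classic NRF2 target genes were followed across 4 groups of mouse kidney epithelial cells. The 9 genes are Nfe2l2, which encodes NRF2, Keap1, Hmox1, Srxn1, Gclc, Gclm, Nqo1, Txnrd1 and Slc7a11. They were taken by symbol from 4 tables of 31026 gene entries each, and each of the 9 stood on 1 entry per table. Messenger RNA had been sequenced from 12 samples, 3 per group, to study the part of the stress kinase JNK in anoikis, in which epithelial cells die after detachment. Control cells carried Rosa-CreER, a Cre recombinase expressed from the Rosa locus. JNK-deficient cells also carried Rosa-CreER, with Jnk1flox/flox and Jnk2-/- alleles, and are labelled Jnk1-/- Jnk2-/-. All cells were of C57BL/6 strain, and each genotype was kept as an attached monolayer or suspended for 4 hours. Nothing in the labels ties the 3 samples of a group to different cultures or animals, and the p-values may then measure technical spread. The labels give neither the age of the mice nor how Cre was activated.

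NRF2 is a transcription factor that pairs with small MAF proteins and binds antioxidant response elements in the promoters of genes for glutathione synthesis, thiol reduction, quinone reduction and heme breakdown. KEAP1 links NRF2 to the CUL3 ubiquitin ligase, so NRF2 protein is continually degraded. Oxidants and electrophiles modify cysteines of KEAP1, and NRF2 protein then accumulates without need of a change in its mRNA. In kidney tubule cells the pathway is known for protection against oxidant injury.

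The tables hold 1 value per group in FPKM (fragments scaled by transcript length and by library size). Single samples are not listed, so neither their depth nor a gene's spread among them is known. FPKM is scaled by transcript length, so levels can be set beside each other between genes. The tables were scaled separately, and values of the same group differed between them by a common factor. It lay between -0.0895 and 0.0752 on the log2 scale, so each fold change was taken within a table. Only the test of the difference of the suspension effects, given below, combined fold changes and standard errors across tables. Mapk8, which encodes JNK1, had 8.76 FPKM in attached control cells and 2.26 FPKM in attached JNK-deficient cells, with q = 0.000347 by the authors' deposited table. Mapk9, which encodes JNK2, had 12.8 and 8.89 FPKM there, also lower (q = 0.000347 in the authors' deposited table). All 10 kidney epithelial markers examined were detected, with a summed level of 4793 FPKM in attached and 2601 FPKM in suspended control cells. The sums in JNK-deficient cells were 4389 and 2613 FPKM. The fibroblast, endothelial, podocyte and red cell lists each summed to at most 3.33 FPKM in any group.

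Transcripts of NRF2 itself rose modestly with suspension. Nfe2l2 (chromosome 2, 75675519 to 75704641 on mm10, minus strand) was at 149 FPKM in attached and 228 FPKM in suspended control cells. In JNK-deficient cells its values were 154 and 230 FPKM. Suspended cells were thus the higher in both genotypes, by a log2 fold change of 0.62 in control cells and 0.58 without JNK (q = 0.000123 and 0.000144 in the authors' deposited tables). Nfe2l2 already ranked 575 by level among the 31026 entries in attached control cells. Changes with suspension followed the GC content and length of transcripts, as the median trend over all genes showed. With that trend removed, the log2 fold changes of Nfe2l2 were 0.44 and 0.35 (adjusted p = 0.0081 and 0.0328, from a z-test with standard errors derived from the authors' deposited tables). When the trend was instead fitted by least squares they were 0.20 and 0.21 and no longer passed (adjusted p = 0.235 and 0.215, derived from the authors' deposited tables).

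Keap1, the substrate adaptor that marks NRF2 for degradation, moved the other way. Keap1 (chromosome 9, 21225371 to 21239332, minus strand) was at 26.6 FPKM in attached and 12.4 FPKM in suspended control cells. In JNK-deficient cells it was at 23.5 and 12.0 FPKM. Both suspended values were lower, with log2 fold changes of -1.10 and -0.97 (q = 0.000123 and 0.000144 in the authors' deposited tables). Its transcript holds 58.0% G and C, the highest share of the 9 genes. With the GC and length trend removed, its fold changes were -0.42 and -0.19 and did not pass (adjusted p = 0.172 and 0.527, derived from the authors' deposited tables). Its locus overlaps the entry AK154190, which reached at most 0.548 FPKM. Without the trend removed, the ratio of Nfe2l2 to Keap1 levels went from 5.60 in attached to 18.4 in suspended control cells. In JNK-deficient cells it went from 6.56 to 19.2. These ratios carry the trend that took the call from Keap1, and they were not tested.

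All 7 target genes rose with suspension in both genotypes. Together their summed level went from 355 to 3336 FPKM in control cells, a ratio of 9.39, and from 542 to 6160 FPKM in JNK-deficient cells, a ratio of 11.4. Of the 9 genes, 8 rose and 1 fell in either genotype by the q-values of the authors' deposited tables. Of all genes tested 65.1% passed in control cells, with 33.0% higher and 32.1% lower, and 59.7% in JNK-deficient cells, with 30.6% higher and 29.0% lower. Each of the 9 genes had the lowest q-value of the authors' deposited table, 0.000123 for control cells and 0.000144 for JNK-deficient cells. The median log2 fold change of the 7 targets was 4.65 in control cells, where that of all genes tested was 0.02. In JNK-deficient cells it was 3.89, with 0.04 over all genes. All 7 kept their call in both genotypes with the GC and length trend removed.

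**Figure D1:**
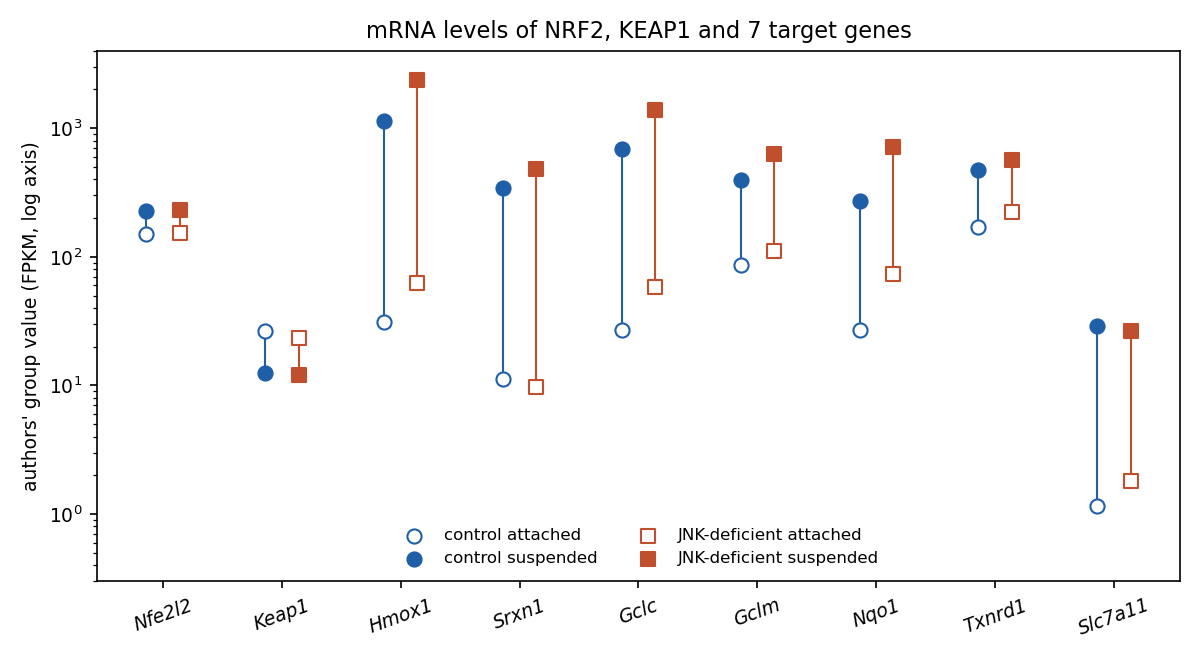
Authors' group value in FPKM (log axis) of each of the 9 genes, with control cells as circles, JNK-deficient cells as squares, attached groups open and suspended groups filled; lines join the values of a genotype, and the genotypes come from tables scaled separately. Hmox1 goes from 30.9 to 1135 FPKM in control cells, while Keap1 is the 1 gene whose filled symbols lie below the open ones.

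Hmox1 encodes heme oxygenase 1, which breaks heme down to biliverdin, carbon monoxide and iron. Hmox1 (chromosome 8, 75093618 to 75100593, plus strand) went from 30.9 to 1135 FPKM in control cells and from 62.2 to 2361 FPKM in JNK-deficient cells. Those are 36.8-fold and 38.0-fold rises, and the suspended JNK-deficient group was the highest of the 4. By level, Hmox1 moved from rank 3431 to rank 47 of 31026 entries in control cells, and from 1583 to 21 in JNK-deficient cells. Its share of the summed level of the 7 targets grew from 8.68% to 34.0% in control cells.

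Slc7a11 encodes the cystine and glutamate exchanger that brings in cystine for glutathione synthesis. Slc7a11 (chromosome 3, 50364936 to 50443613, minus strand) had the lowest level of the 7 targets in each group. It went from 1.15 to 28.9 FPKM in control cells and from 1.79 to 26.5 FPKM in JNK-deficient cells. The rises were 25.1-fold and 14.8-fold, from an attached level that was the higher of the genotypes in JNK-deficient cells. The entry also carries the transcript AK089283, whose reads cannot be told apart from those of Slc7a11.

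Gclc and Gclm encode the catalytic and the modifier subunit of glutamate-cysteine ligase, the first enzyme of glutathione synthesis, and they rose by unequal amounts. Gclc (chromosome 9, 77754535 to 77794489, plus strand) went from 26.8 to 689 FPKM in control cells and from 58.5 to 1381 FPKM in JNK-deficient cells. Gclm (chromosome 3, 122245592 to 122266648, plus strand) went from 87.1 to 398 FPKM in control cells and from 112 to 626 FPKM in JNK-deficient cells. The catalytic subunit rose 25.7-fold and the modifier subunit 4.58-fold in control cells, and 23.6-fold and 5.61-fold in JNK-deficient cells. Gclc was the less abundant of the pair in attached cells and the more abundant in suspended cells. The ratio of Gclc to Gclm levels went from 0.308 to 1.73 in control cells and from 0.524 to 2.21 in JNK-deficient cells. No test of these ratios was possible without values per sample.

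Srxn1 and Txnrd1 act on protein thiols. Srxn1 encodes sulfiredoxin, which repairs overoxidised peroxiredoxins, and Txnrd1 encodes the cytosolic thioredoxin reductase. Srxn1 (chromosome 2, 152105730 to 152111353, plus strand) went from 11.2 to 342 FPKM in control cells and from 9.80 to 481 FPKM in JNK-deficient cells. These were 30.6-fold and 49.1-fold rises, and in JNK-deficient cells the rise of Srxn1 was the largest of the 9 genes. Its log2 fold change of 5.62 ranked 42 of 13050 genes there. Txnrd1 (chromosome 10, 82833951 to 82897724, plus strand) went from 171 to 473 FPKM in control cells and from 224 to 565 FPKM in JNK-deficient cells. It was the most abundant target in both attached groups and had the smallest rise of the 7, 2.76-fold and 2.52-fold. Its locus overlaps the entry of Eid3, which reached at most 2.72 FPKM in any group.

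Nqo1 encodes a quinone reductase that uses NADH or NADPH to reduce quinones in a single step. Nqo1 (chromosome 8, 107388225 to 107403205, minus strand) went from 27.2 to 270.0 FPKM in control cells. In JNK-deficient cells it went from 73.9 to 719 FPKM. The rises were 9.94-fold and 9.73-fold, and both JNK-deficient values lay above the control value of the same state.

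Markers of leukocytes, which can also express Hmox1, moved in the same comparison. Of the 7 leukocyte markers found, 5 were tested in control and 4 in JNK-deficient cells. Of those tested, 3 rose and 1 fell in each genotype. Over all genes tested, 33.0% rose and 32.1% fell in control cells, and 30.6% and 29.0% in JNK-deficient cells. In control cells Ptprc, the CD45 gene, went from 1.14 to 8.92 FPKM and Csf1r, a macrophage receptor gene, from 0.572 to 3.87 FPKM. Cd68 went from 15.1 to 34.5 FPKM there. Cd14 was the marker that fell, from 38.9 to 22.5 FPKM in control and from 61.3 to 28.4 FPKM in JNK-deficient cells. The summed level of the list was 55.7 and 70.9 FPKM in attached and suspended control cells, and 77.9 and 78.3 FPKM in JNK-deficient cells. Cd14 was the largest term of both attached sums, so its fall offset the rises of the others. Lyz2 went from 0.0248 to 0.897 FPKM in control and from 0.0226 to 0.399 FPKM in JNK-deficient cells. Itgam was at 0.0434 FPKM and Emr1 at 0.144 FPKM in suspended control cells, and Emr1 was listed at 0 in both JNK-deficient groups. Of the 10 epithelial markers, 9 fell in control and 8 in JNK-deficient cells, while Cdh1 rose in both. The part of these cells in the rise of the targets was not tested, and in pooled RNA fewer cells of a type cannot be told apart from less RNA per cell.

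**Figure D2:**
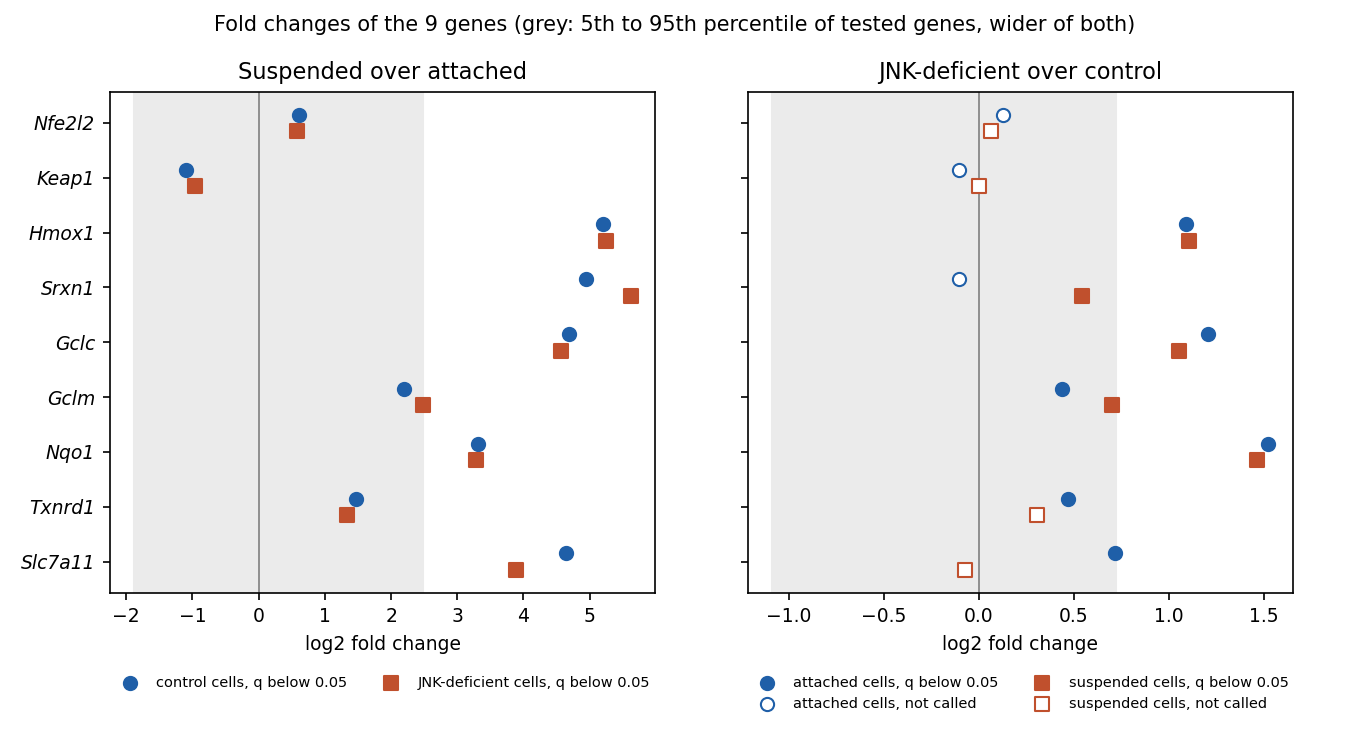
Log2 fold change of each gene for suspension (left, by genotype) and for genotype (right, by state); filled symbols passed q below 0.05, and the grey band spans the 5th to 95th percentile of all genes tested, the wider of both comparisons. With suspension the targets lie between 1.34 and 5.62, and with genotype between -0.10 and 1.53.

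JNK-deficient cells held more transcript of 6 of the 7 targets than control cells while still attached. Nfe2l2 and Keap1 did not pass. The count was 6 of 9 higher and 0 lower by the q-values of the authors' deposited table, while 28.8% of all genes tested passed, 14.7% higher and 14.1% lower. Nqo1 had the largest difference, at 25.5 and 73.5 FPKM in control and JNK-deficient cells, a log2 fold change of 1.53. Gclc was at 25.2 and 58.2 FPKM (1.21) and Hmox1 at 29.0 and 61.9 FPKM (1.09). Smaller differences were found for Slc7a11 (0.72), Txnrd1 at 161 and 223 FPKM (0.47) and Gclm at 81.8 and 111 FPKM (0.44). All 6 genes stood at q = 0.000347 in the authors' deposited table, the lowest it holds. Slc7a11 was low in both groups, at 1.08 and 1.78 FPKM, and its difference was 0.42 with 1 FPKM added to both values.

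Srxn1 was the target that did not pass in attached cells, at 10.5 and 9.75 FPKM, a log2 fold change of -0.10 with a 95% interval from -0.29 to 0.08 (q = 0.473 in the authors' deposited table). The interval rests on a standard error derived from the authors' p-value. Nfe2l2 was at 140 and 153 FPKM, with 0.13 and an interval from -0.04 to 0.30 (q = 0.297 in the authors' deposited table). Keap1 was at 25 and 23.4 FPKM, with -0.10 and an interval from -0.28 to 0.07 (q = 0.458 in the authors' deposited table).

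In suspended cells, 5 targets were higher in JNK-deficient cells. The count was 5 of 9 higher and 0 lower by the q-values of the authors' deposited table, while 12.5% of all genes tested passed, 5.57% higher and 6.93% lower. Nqo1 was at 274 and 756 FPKM (log2 fold change 1.46), Hmox1 at 1153 and 2486 FPKM (1.11) and Gclc at 700 and 1456 FPKM (1.06). Gclm was at 405 and 660 FPKM (0.70) and Srxn1 at 347 and 506 FPKM (0.54). All 5 had q = 0.00099 in the authors' deposited table, the lowest it holds. Txnrd1 was at 480 and 595 FPKM (0.31, interval from -0.04 to 0.66, q = 0.299) and Slc7a11 at 29.4 and 28.0 FPKM (-0.07, interval from -0.32 to 0.18, q = 0.821) in the authors' deposited table. Nfe2l2 was at 232 and 243 FPKM (0.06, q = 0.83) and Keap1 at 12.6 and 12.7 FPKM (0.00, q = 0.994) in the authors' deposited table. Hmox1, Gclc and Nqo1 thus had more than 2-fold higher levels in JNK-deficient cells in both states, with ratios of 2.13 and 2.16, 2.31 and 2.08, and 2.88 and 2.76 in attached and suspended cells. The attached and suspended comparisons share no samples. The labels do not tell whether they share cultures or animals, so the 2 comparisons need not be independent.

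Whether the suspension response differed between genotypes was tested as the difference of the log2 fold changes, JNK-deficient minus control. The z-test took standard errors derived from the authors' p-values and was adjusted by Benjamini-Hochberg over 12114 genes, of which 1.92% passed. The effect was higher for 0.594% of the tested genes and lower for 1.33% in JNK-deficient cells than in control cells. Of the 9 genes, 2 passed, in opposite directions. Srxn1 rose more in JNK-deficient cells, by 0.68 (SE at most 0.165, 95% interval from 0.36 to 1.0, adjusted p = 0.00584, derived from the authors' deposited tables). Slc7a11 rose less in JNK-deficient cells, by a difference of -0.76 (SE at most 0.218, interval from -1.19 to -0.34, adjusted p = 0.032, derived from the authors' deposited tables). Both genes rose in both genotypes, Slc7a11 from attached levels of 1.15 and 1.79 FPKM in control and JNK-deficient cells.

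The remaining 7 genes did not pass. Hmox1 had a difference of 0.05 with an interval from -0.71 to 0.80, and Gclc one of -0.12 with an interval from -0.90 to 0.65. Nqo1 was at -0.03 (interval from -1.05 to 0.99), Gclm at 0.30 (from -0.11 to 0.70) and Txnrd1 at -0.13 (from -0.55 to 0.29). The interval of Nqo1 held both the Srxn1 difference of 0.68 and the Slc7a11 difference of -0.76. The intervals of Hmox1, Gclm and Keap1 held the Srxn1 difference only, and that of Gclc the Slc7a11 difference only. Nfe2l2 was at -0.04 with an interval from -0.33 to 0.25 and Keap1 at 0.13 with an interval from -0.58 to 0.84. For 8 of the 9 genes, Nfe2l2 excepted, the standard error is an upper bound, since p-values stood at the lowest step of the tables.

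**Figure D3:**
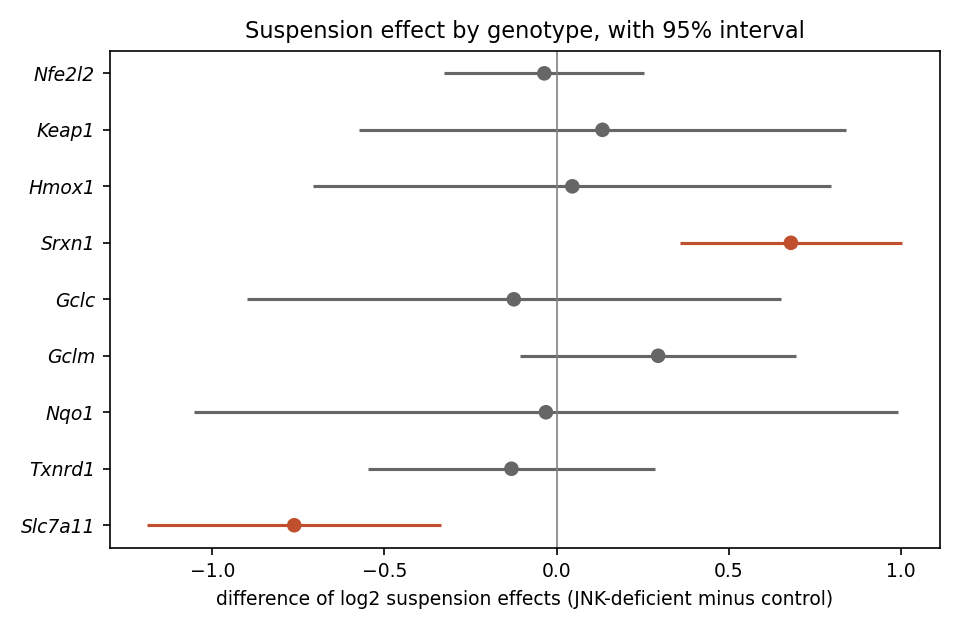
Difference of the log2 suspension effects, JNK-deficient minus control, as a point with its 95% interval for each gene; coloured genes passed an adjusted p of 0.05. Srxn1 lies at 0.68 and Slc7a11 at -0.76, and the intervals of the other genes include 0.

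The promoters of Srxn1 and Slc7a11 are shown since these are the genes whose response differed between genotypes. The windows run from 250 bases before to 50 bases after the RefSeq transcription start on GRCm38.p6 and are written 5′ to 3′ on the gene's strand. For Srxn1 the window is chr2:152105274-152105573 on the plus strand, and the entry's locus begins 206 bases downstream of that start. For Slc7a11 it is chr3:50443564-50443863 on the minus strand. Capitals mark matches, on either strand, to the antioxidant response element core TGACNNNGC, the related NF-E2 type site TGANTCAGC, the AP-1 site TGANTCA, and TGATGNAA, the composite C/EBP and ATF site.
Srxn1: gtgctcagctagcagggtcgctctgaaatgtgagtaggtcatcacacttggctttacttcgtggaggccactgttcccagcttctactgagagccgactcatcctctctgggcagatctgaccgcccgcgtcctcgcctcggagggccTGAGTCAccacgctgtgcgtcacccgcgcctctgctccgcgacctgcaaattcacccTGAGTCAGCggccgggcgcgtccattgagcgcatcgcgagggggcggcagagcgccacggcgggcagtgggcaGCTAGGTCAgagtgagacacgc
Slc7a11: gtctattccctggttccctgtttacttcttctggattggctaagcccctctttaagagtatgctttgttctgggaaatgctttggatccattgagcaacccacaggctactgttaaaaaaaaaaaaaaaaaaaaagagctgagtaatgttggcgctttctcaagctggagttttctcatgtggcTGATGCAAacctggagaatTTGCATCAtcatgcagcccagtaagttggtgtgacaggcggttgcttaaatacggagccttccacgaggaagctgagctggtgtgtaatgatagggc

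The Srxn1 window held AP-1 matches beginning at -102 and -45, the second of which extends to the NF-E2 type site, with positions counted from 0 at the start site. It also held a TGACNNNGC match on the opposite strand beginning at 28. TGANTCA reads as a match on both strands. The Slc7a11 window held TGATGCAA on its own strand beginning at -66 and on the opposite strand beginning at -47, and none of the other motifs. RefSeq windows were found for 7 of the 9 genes, 9 windows in all since Txnrd1 has 3. Hmox1 and Gclc had none, and bases outside the windows were not searched. TGACNNNGC was in 4 of the 9 windows, those of Nfe2l2, Srxn1, Gclm and 1 of Txnrd1, against 12.4% of 32851 mouse windows. TGANTCA and TGANTCAGC were in the Srxn1 window alone among these 9 windows of 7 genes, against 7.81% and 1.19% of all windows. TGATGNAA was in the Slc7a11 window alone, against 3.97%. A match describes letters of the window and not a bound site.

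Other regulators of the pathway were read from a list of 12 genes. In control cells 8 of 12 rose and 0 fell, with a median log2 fold change of 0.62. In JNK-deficient cells 7 rose and 2 fell, with a median of 0.76. The shares over all genes were 33.0% up and 32.1% down in control cells, and 30.6% and 29.0% in JNK-deficient cells. Sqstm1 encodes p62, which binds KEAP1 and delivers it to autophagy, and it rose from 362 to 1414 FPKM in control cells (1.96) and by 2.02 in JNK-deficient cells. Bach1 encodes a repressor that competes for antioxidant response elements, with Hmox1 a known target, and it rose by 1.93 and 1.92. Nfe2l3, which encodes an NRF2 relative, rose by 2.46 and 1.99 from 0.816 and 0.362 FPKM. Bach2, a further repressor gene, rose by 2.43 and 3.25 from 0.272 and 0.0544 FPKM. Maff, 1 of the small MAF genes, differed in its response, with 0.28 in control and -0.46 in JNK-deficient cells (difference -0.74, adjusted p = 0.0206, derived from the authors' deposited tables). Maff was the 1 gene of 11 regulators tested for the difference to pass, where 1.92% of all genes passed. With the GC and length trend removed, Maff was at 1.0 in control cells, where it passed, and at 0.34 in JNK-deficient cells, where it did not.

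Of 14 tested genes that make, use or recycle glutathione, 6 rose and 4 fell in control cells (median 0.20), where 33.0% of all genes tested rose and 32.1% fell. In JNK-deficient cells 5 rose and 4 fell (median 0.12), where 30.6% of all genes rose and 29.0% fell. These counts lie near the shares over all genes, and so do those of the thioredoxin list. Gss, the enzyme gene of the second step of glutathione synthesis, rose from 22.4 to 65.5 FPKM in control cells (1.55) and by 2.04 in JNK-deficient cells. Glrx, a glutaredoxin gene, rose by 1.29 and 2.02, and Abcc1, which encodes an exporter of glutathione conjugates, by 1.02 and 1.04. Gpx1, a glutathione peroxidase gene, fell by 1.36 and 1.31, and with the GC and length trend removed it was at -0.67 and -0.57 and did not pass (adjusted p = 0.0693 and 0.127, derived from the authors' deposited tables). Slc3a2, the partner chain of Slc7a11, was at 93.3 and 100.1 FPKM in attached and suspended control cells (0.10, q = 0.515 in the authors' deposited table).

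Of the thioredoxin and peroxiredoxin genes, 3 of 11 rose and 3 fell in control cells, and 4 rose and 3 fell in JNK-deficient cells (medians 0.03 and 0.13). Txnip, which encodes an inhibitor of thioredoxin, rose by 1.27 and 1.28. Prdx5 and Prdx2, peroxiredoxin genes, fell by 1.85 and 0.80 in control cells and by 1.55 and 0.52 in JNK-deficient cells, while Prdx4 rose by 0.73 and 0.80. Of the 7 genes of NADPH supply, 3 rose and 2 fell in each genotype (medians 0.20 and 0.19). These NADPH counts lie near the shares over all genes. Those were 33.0% up and 32.1% down in control cells, and 30.6% and 29.0% in JNK-deficient cells. Pgd and G6pdx, of the oxidative pentose phosphate pathway, rose by 1.33 and 1.19 in control cells and by 1.39 and 1.25 in JNK-deficient cells, and Idh1 rose by 0.98 and 1.52. Idh2 fell by 0.50 in control and by 0.35 in JNK-deficient cells, calls that were lost with the GC and length trend removed (-0.04 and 0.17).

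Of the detoxifying enzyme genes, 7 of 10 rose and 0 fell in control cells (median 0.46). In JNK-deficient cells 8 of 10 rose and 0 fell (median 0.77). Over all genes tested, 33.0% rose and 32.1% fell in control cells, and 30.6% and 29.0% in JNK-deficient cells. Cbr3, a carbonyl reductase gene, rose from 1.38 to 27.4 FPKM in control cells (4.31) and by 4.80 in JNK-deficient cells. Ugdh, which makes UDP-glucuronate, rose by 2.96 and 3.05, and Aldh9a1, an aldehyde dehydrogenase gene, by 0.64 and 0.85. Around heme oxygenase, 3 of 6 genes rose in each genotype, and 3 fell in control and 2 in JNK-deficient cells (medians 0.99 and 1.06). Slc40a1, the iron exporter ferroportin, rose by 4.35 and 4.51, Blvrb, a biliverdin reductase gene, by 2.83 and 2.15, and Fth1, the ferritin heavy chain, by 2.32 and 2.22. Blvra, the other biliverdin reductase gene, fell by 1.03 and 0.80.

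Of the superoxide dismutase and catalase genes, 2 of 4 rose and 1 fell in control cells (median 0.23). In JNK-deficient cells 2 of 3 tested rose (median 0.29). The shares over all genes were 33.0% up and 32.1% down in control cells, and 30.6% and 29.0% in JNK-deficient cells. Cat, the catalase gene, rose from 39.7 to 158 FPKM in control cells (1.99) and by 2.46 in JNK-deficient cells. Sod1 rose by 0.23 and 0.29, and with the GC and length trend removed it was at 0.04 in both genotypes and did not pass.

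Slc7a11 is also a known target of ATF4, the factor of the integrated stress response. Of 8 other genes of that response, 1 rose and 5 fell in each genotype (medians -0.30 and -0.47). Over all genes tested, 33.0% rose and 32.1% fell in control cells, and 30.6% and 29.0% in JNK-deficient cells. Ddit3, which encodes CHOP, was the gene that rose, by 1.87 and 1.23. Chac1, which encodes an enzyme that degrades glutathione, fell, with -1.36 and -2.07, as did Psat1, of serine synthesis, with -0.77 and -0.57, and Cth, which makes cysteine, with -0.54 and -1.15. With the GC and length trend removed, 3 rose and 2 fell in control cells and 2 rose and 3 fell in JNK-deficient cells. The genes that then rose in control cells were Ddit3, Trib3 (0.57) and Sesn2 (0.50), and Chac1 was at -0.63 there (adjusted p = 0.0911, derived from the authors' deposited tables). Over all genes, the same correction gave 27.2% up and 24.4% down in JNK-deficient cells. In control cells it gave 31.3% up and 28.6% down over all genes. It gave 8 up and 0 down for the regulators, 8 and 1 for the detoxifying enzymes, 6 and 2 for the glutathione list, 2 and 4 for the thioredoxin list, 4 and 1 for NADPH supply, 4 and 2 for heme and iron, and 1 and 0 for superoxide dismutases and catalase.

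**Figure D4:**
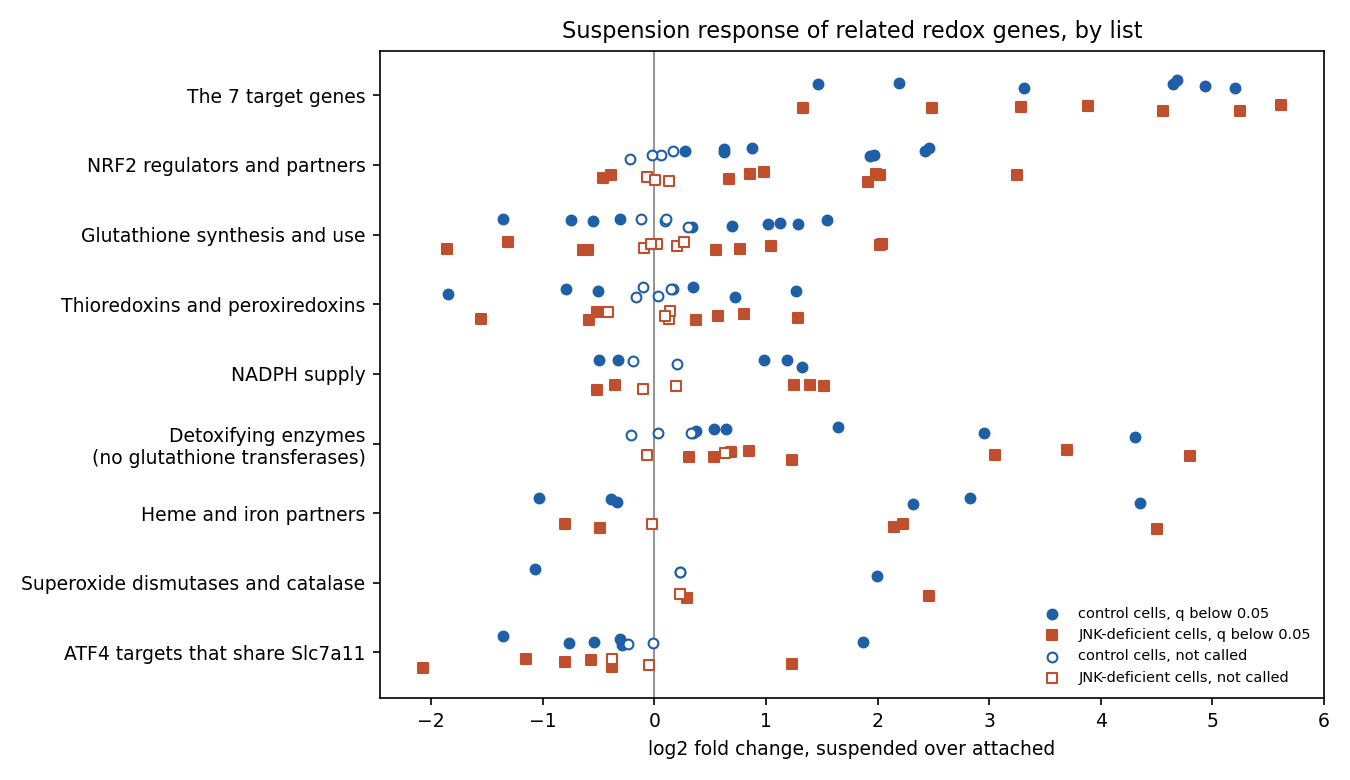
Log2 fold change, suspended over attached, of each tested gene of the 7 targets and of 8 lists of related genes, with control cells as circles and JNK-deficient cells as squares, filled where q was below 0.05. The targets all lie at 1.34 or above, while the glutathione, thioredoxin and ATF4 lists spread to both sides of 0.

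Across genotypes, the lists of related genes were counted in the same way. In attached cells, where 14.7% of all genes tested were higher in JNK-deficient cells and 14.1% lower, 5 of 6 heme and iron genes were higher and 0 lower. The counts higher and lower were 6 and 2 of 14 for glutathione, 3 and 1 of 7 for NADPH supply, and 3 and 0 of 11 for the thioredoxins. They were 3 and 2 of 10 for the detoxifying enzymes, 3 and 1 of 11 for the regulators, 1 and 1 of 4 for superoxide dismutases and catalase, and 4 and 0 of 8 for the ATF4 list. In suspended cells, where 5.57% of all genes were higher and 6.93% lower, 4 of 6 heme and iron genes were higher and 0 lower. The other counts were 4 and 1 of 14 for glutathione, 3 and 0 of 7 for NADPH supply, 3 and 0 of 11 for the thioredoxins, and 4 and 0 of 10 for the detoxifying enzymes. They were 0 and 2 of 12 for the regulators, 1 and 0 of 3 for superoxide dismutases and catalase, and 1 and 1 of 8 for the ATF4 list. With the GC and length trend removed, 2 of the 6 heme and iron genes remained higher in suspended cells. G6pdx was at 58.7 and 96.8 FPKM in attached control and JNK-deficient cells (0.72) and at 145 and 244 FPKM in suspended cells (0.75). Fth1 was at 496 and 879 FPKM in attached cells (0.82) and at 2681 and 4341 FPKM in suspended cells (0.70). Pgd was higher in JNK-deficient cells by 0.43 and 0.47, and Abcc1 by 0.49 and 0.48.

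The genes whose pattern lay nearest to the median of the targets were sought by distance. The measure was the Euclidean distance between the 4 log2 fold changes of a gene and the median of those of the 7 targets. It was taken over 10042 genes outside the 9 that were tested in all 4 comparisons and had at least 5 FPKM in at least 1 group. The 7 targets themselves lay from 0.776 (Slc7a11) to 4.11 (Txnrd1) from that median. A gene near the median thus need not follow each target. The 5 nearest were Il1f9, an interleukin-1 family cytokine gene, at 0.563, Gabrp, a GABA receptor subunit gene, at 0.697, Slc40a1 at 0.771, Marcksl1-ps4, a gene named as a pseudogene, at 0.847, and Slc30a1, which encodes a zinc exporter, at 0.914. Il1f9 went from 0.442 to 8.13 FPKM in control and from 0.862 to 13.4 FPKM in JNK-deficient cells.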

How the data were processed

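Per the labels' protocols, RNA was column-purified with a DNase step, and messenger RNA was made into Illumina libraries sequenced. Cuffdiff, Cufflinks 1.0.3, TopHat, Bowtie and build mm10 are named in the submitters' processing notes. The authors deposited 4 pairwise tables with 1 FPKM value per group, a p-value and a q-value. P-values came in steps of 5e-05, and q-values equalled Benjamini-Hochberg adjustment over tested entries. Positions are printed counting from 1. Depth per sample is unknown.

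Log2 fold changes were recomputed from the FPKM values, and a gene was called by the authors' q-value below 0.05. Standard errors were the size of the log2 fold change over the normal score of p, where p was at most 0.95, and are upper bounds at the lowest p. The difference test used the mean of the routes through the suspension and the genotype tables where no p was at its lowest step, otherwise the route where none was, otherwise the smaller bound. The difference test was also run on simulated data for 12114 genes. It called 50% of genes changed by 1 on the log2 scale and 72% of those changed by 2. Of unchanged genes it called 0.0252%. The simulated errors were normal, independent and sized from the derived standard errors, and the p-values were made from them. The simulation thus could not test whether the authors' p-values yield sound standard errors. The GC and length trend was a spline median regression on the longest GENCODE M21 transcript (88.7% of genes tested in all tables had one). Python 3.11.15, scipy 1.17.1 and numpy 2.4.6 were used.

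All 9 genes were named. From each list up to 4 genes were named, those with the largest change in suspended control cells among genes that passed there and reached 1 FPKM in 1 group. Slc3a2, Maff, Trib3, Sesn2, Osgin1 and Akr1b8 were chosen after their values were seen. The members, lists and tests were chosen with earlier results of these data known.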

Additional observations from a re-analysis of the deposited data

Results flagged for a closer look

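For 2 of the 9 genes the suspension effect differed between genotypes by a z-test of the difference itself. Srxn1 rose by 4.94 on the log2 scale in control and 5.62 in JNK-deficient cells, a difference of 0.68. Slc7a11 rose by 4.65 in control and 3.89 in JNK-deficient cells, a difference of -0.76. Taken from the genotype tables, as suspended minus attached, the differences were 0.65 and -0.79 (adjusted p = 0.00944 and 0.0224, derived from the authors' deposited tables). Slc7a11 was low in attached cells, at 1.15 and 1.79 FPKM in control and JNK-deficient cells. With 1 FPKM added to all values, its rises were 3.80 and 3.30, and their difference was not tested.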

How the results depend on the processing

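The counts of the 9 genes called stayed within 1.5 times the reported count in 25 of 26 recomputations. Of 197 recomputed values of single genes, 185 kept their direction, and their call where one was recomputed. No call was recomputed with 1 FPKM added, nor for Keap1 between genotypes in suspended cells. The exception among the counts was the difference of the suspension effects with standard errors from the suspension tables only, where 0 genes passed and Srxn1 and Slc7a11 lost their calls. Both p-values of Srxn1 and of Slc7a11 there stood at the lowest step, so the bound on the error grows with the fold change. The calls or values that changed were those of Keap1 with the GC and length trend removed, of Nfe2l2 with that trend fitted by least squares, and of Slc7a11 with 1 FPKM added, given above. The least squares trend, chosen after seeing the data, moved the median of all genes by -0.18 in control and -0.11 in JNK-deficient cells. The sign changed for 3 values near 0 that passed under neither setting. Keap1 between genotypes in suspended cells went from 0.00388 to -0.00375 when centred on the median. With the least squares trend the difference of the suspension effects went from -0.04 to 0.00463 for Nfe2l2 and from -0.03 to 0.0163 for Nqo1. No sample could be left out in turn, since each column is the value of a whole group. No paired analysis was possible because the columns carry no replicate numbers.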

Other observations

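Among the detoxifying genes outside the 9, the suspension effect of Ptgr1 differed between genotypes. Ptgr1, which encodes prostaglandin reductase 1, had 2.80 and 1.5 FPKM in attached control and JNK-deficient cells (log2 fold change -0.90). Suspended, the values were 9.47 and 20.7 FPKM (1.13). Its suspension effect was larger in JNK-deficient cells by 2.05 (adjusted p = 5.08e-05, derived from the authors' deposited tables). Ptgr1 was the 1 gene of 10 in its list to pass, where 1.92% of all genes tested passed. Osgin1, an oxidative stress response gene, was lower in attached JNK-deficient cells, at 22.5 and 14.3 FPKM. Suspended control and JNK-deficient cells had 24.9 and 24.4 FPKM, a log2 fold change of -0.03 with q = 0.951 by the authors' deposited table. Its difference of 0.66 did not pass (adjusted p = 0.0708, derived from the authors' deposited tables). Akr1b8, an aldo-keto reductase gene, was higher in JNK-deficient cells in both states, by 0.61 and 1.44, and its difference of 0.86 did not pass (adjusted p = 0.169, derived from the authors' deposited tables).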
